A study of Mus musculus with 4 samples.

Results

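The regions described here are CTCF binding regions that were strong in both control libraries of a mouse B cell line and had no peak in either library of the same line with less TFII-I. They are called knockdown-absent regions. Peaks of all 4 deposited lists were merged into 29116 regions wherever they shared 1 bp or more, and the highest peak score of each library was kept per region. Of these, 10411 regions on the 19 autosomes scored 100 or more in control replicate 1 and also in control replicate 2, and 363 of them (3.49%) overlapped no peak in the lists of knockdown replicates 1 and 2. The remaining 10048 are called the other strong regions. The 363 were chosen by their control scores and by the missing knockdown calls, so those values are given as a description and no test was made on them.

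All 4 libraries were CTCF chromatin immunoprecipitation followed by sequencing (ChIP-seq) in WEHI-231, a B cell lymphoma line of (BALB/c x NZB)F1 mice, precipitated with the same commercial antibody. One group, Wehi-231-CT, was control cells. The other, Wehi-231-TFII-I KD, carried a stable TFII-I knockdown, named shTFII-I in the design text, and each group had 2 libraries. The labels do not say whether a line was 1 clone, nor whether replicates were grown separately, so their spread may be purely technical. The question posed by the title is whether TFII-I targets CTCF to promoters. The level of TFII-I and the genes at the regions were not analysed here.

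CTCF is a DNA-binding protein with a row of zinc fingers that reads a long, directional motif. Together with the cohesin ring it halts loop extrusion, so that pairs of CTCF sites form the anchors of chromatin loops and the borders of topological domains, and it also sits near many promoters. In B cells CTCF sites shape the folding of the immunoglobulin loci. TFII-I, encoded by Gtf2i, is a transcription factor that binds initiator and E-box elements, and in B cells it is a substrate of Bruton's tyrosine kinase.

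The authors gave each peak a score, from 50 to 3100 over the 4 lists, which ranks peaks within a list. Control replicate 1 had 24467 peaks and control replicate 2 had 23873, while knockdown replicate 1 had 19076 and knockdown replicate 2 had 15309. Read depth is not known from the lists. Since the knockdown lists are the shorter ones, a difference in depth or enrichment between libraries and an effect of the knockdown cannot be told apart in what follows. With 2 libraries against 2, no two-sided exact permutation test could reach significance.

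Within the strong class, the knockdown-absent regions lay mostly at the low end. Their score in control replicate 1 ran from 100 to 267 with a median of 128, against a median of 164 for the other strong regions. In control replicate 2 it ran from 100 to 244 with a median of 124, against 156. The lower of both control scores had a median of 115 (quartiles 105 and 128), against 140 (118 and 173) for the other strong regions. Only 29 of the 363 (7.99%) reached 150 in both controls and 1 reached 200, whereas 4055 of the other strong regions (40.4%) reached 150. The word strong thus fits these regions by the threshold, not by their place among the regions above it. Their median rank was 9710 of 24388 regions with a peak in control replicate 1 and 9396 of 23807 in control replicate 2. For the other strong regions the median ranks were 5652 and 5575. The score threshold itself bounds these ranks, as the last of the other strong regions ranked 13941 and 13224.

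**Figure D1:**
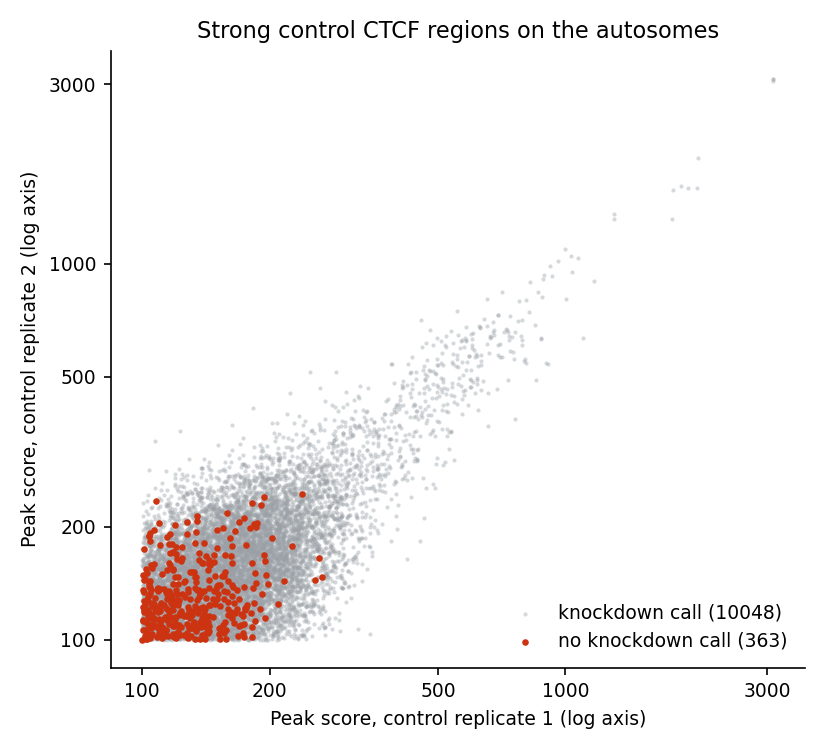
Each point is 1 of the 10411 autosomal regions scoring 100 or more in both controls, placed by its peak score in control replicate 1 (horizontal, log axis) and control replicate 2 (vertical, log axis). Red points are the 363 regions with no knockdown call, which end at 267 and 244 on these axes, and grey points are the 10048 others, which reach 3100.

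The 2 control scores of each region are compared as a description only, since the rule used them. Control replicate 1 scored higher in 183 of the 363 and control replicate 2 in 180, against 5539 and 4506 of the other strong regions. The median difference between the 2 scores was 21.1 (quartiles 10.00 and 40.2), and 33.0 among the other strong regions. In the class whose lower control score was at least 100 and under 110, the medians were 21.5 and 33.5. At a given lower score, a smaller difference means a lower higher score, so it does not measure replicate agreement. The centres of both control peaks lay a median of 49.0 bp apart in the knockdown-absent regions and 48.0 bp apart in the others. A region had more than 1 peak in a control in 2 of the 363 cases and in 79 of the 10048 other strong regions.

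At the threshold itself, little separated regions inside from regions outside. The member nearest to it, on chromosome 9 from 58721700 to 58722204, scored 100 in both controls. The next, on chromosome 4 from 88403382 to 88403875, scored 100 and 113, and another, on chromosome 11 from 81796544 to 81797222, scored 133 and 100. Just outside, and equally without a knockdown call, were regions on chromosome 18 from 66564021 to 66564637 with 138 and 99.9, on chromosome 6 from 54759435 to 54760019 with 99.9 and 121, and on chromosome 2 from 12223419 to 12223952 with 109 and 99.8.

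The share of strong regions without any knockdown call fell with control score. Among 1618 regions whose lower control score was at least 100 and under 110, 145 had none (8.96%, 95% Clopper-Pearson interval 7.61 to 10.5%). This share was 5.96% (85 of 1426) from 110, 4.14% (50 of 1207) from 120, 3.21% (36 of 1121) from 130 and 1.88% (18 of 955) from 140. It was 1.06% (18 of 1693) from 150 to 175, 1.02% (10 of 981) from 175 to 200, and 0.0709% (1 of 1410) at 200 or more. The intervals cover counting error over regions only, and regions are not replicates.

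The other strong regions of the same control score show what an absent call stood beside. In the class from 100 to 110, 83.2% of all regions had a peak in knockdown replicate 1 and 67.4% in knockdown replicate 2, and 59.6% had one in both. Where called, the other strong regions of that class had median scores of 87.7 in replicate 1 and 78.7 in replicate 2. In the class from 150 to 175, 96.2% were called in replicate 1 with a median score of 108, and 86.5% in replicate 2 with a median of 94.8. Where called, the other strong regions of the lowest class thus had median scores under 100 in both knockdown lists. The class was chosen by control scores with no such cut in the knockdown, so lower scores there can follow from the choice. Scores were also not put on a common scale across lists. The knockdown-absent regions had no peak at or above the lowest listed score of 50 in either knockdown list.

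Strong regions missing from one knockdown list were also missing from the other more often than the remaining strong regions were. Of the 808 strong regions with no call in knockdown replicate 1, 363 also lacked one in replicate 2 (44.9%). Of the 9603 strong regions called in replicate 1, 1615 lacked a call in replicate 2 (16.8%). These are the calls that chose the regions, so the shares are a description and support no difference. Lower control scores went with missing calls in both lists, and the shares are therefore also given by score class. From 100 to 110, 53.3% of 272 regions without a call in replicate 1 lacked one in replicate 2, against 28.4% of 1346 regions with one. From 130 to 140 these shares were 41.9% of 86 and 17.3% of 1035, and from 175 to 200 they were 32.3% of 31 and 9.16% of 950. At 200 or more they were 14.3% of 7, which is a single region, and 3.21% of 1403. The complete division of the 10411 strong regions was 7988 called in both knockdown lists (76.7%), 1615 in replicate 1 alone (15.5%), 445 in replicate 2 alone (4.27%) and the 363 in neither.

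Comparing single lists gave the level of absence within a group. Of the 13657 autosomal regions scoring 100 or more in control replicate 1, 365 had no peak in control replicate 2 (2.67%), 1762 had none in knockdown replicate 1 (12.9%) and 3524 had none in knockdown replicate 2 (25.8%). Of the 12925 that did so in control replicate 2, 243 had no peak in control replicate 1 (1.88%), 1522 had none in knockdown replicate 1 (11.8%) and 3087 had none in knockdown replicate 2 (23.9%). Absence from a knockdown list was thus more frequent than absence from the other control. Within the knockdown pair, however, 966 of 6580 regions scoring 100 or more in replicate 1 had no peak in replicate 2 (14.7%), and 189 of 4208 were missing in the reverse direction (4.49%). With all these scores pooled, the control shares absent from knockdown replicate 1 lay below the 14.7% of knockdown replicate 1 absent from knockdown replicate 2. Knockdown replicate 2 was the shortest list. The pooled sets were unlike, as a score of 100 kept 13657 and 12925 control regions but 6580 of knockdown replicate 1. The order was not the same in every score class. Among regions scoring from 100 to 110 in the first list, 29.8% and 24.4% of control replicate 1 and 2 regions were absent from knockdown replicate 1, and 23.8% of knockdown replicate 1 regions were absent from knockdown replicate 2. From 110 to 120 these shares were 23.2%, 19.4% and 19.8%, and from 120 to 130 they were 19.1%, 17.6% and 17.3%. They were 15.8%, 13.9% and 11.9% from 130 to 140, and 11.2%, 10.0% and 12.0% from 140 to 150. The classes from 150 to 175 and from 175 to 200 gave 9.24%, 7.76% and 6.74%, and then 6.09%, 5.60% and 6.11%. At 200 or more the shares were 1.90%, 2.11% and 1.17%. Both control shares thus lay above the share within the knockdown pair in most classes. Both lay below it only from 140 to 150 and from 175 to 200.

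The same comparison with the strongest 5000 autosomal regions of each list uses ranks in place of a score. Of those of control replicate 1, 16 had no peak in control replicate 2 (0.320%), 188 had none in knockdown replicate 1 (3.76%) and 658 had none in knockdown replicate 2 (13.2%). Of those of knockdown replicate 1, 37 had no peak in control replicate 1 (0.740%) and 595 had none in knockdown replicate 2 (11.9%). Of those of knockdown replicate 2, 53 and 67 had no peak in control replicates 1 and 2, and 264 had none in knockdown replicate 1 (5.28%). For control replicates 1 and 2 and for knockdown replicate 1, absence was most frequent in knockdown replicate 2, which lacked 591 (11.8%) of the regions of control replicate 2. In the reverse of the rule, 0 of 2642 autosomal regions scoring 100 or more in both knockdown lists lacked a call in both controls. An approximate upper limit, 3 counts over 2642, is 0.114%, and it covers counting error over regions only. A score of 100 was a stricter cut in the knockdown lists, where the lowest of the strongest 5000 regions scored 111 and 93.4, against 170 and 161 in the controls. The 0 and the 3.49% of the rule are therefore not shares of like sets. At any score, 14.8% of the autosomal regions called in both controls had no knockdown call, and 1.02% of those called in both knockdown lists had no control call.

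**Figure D2:**
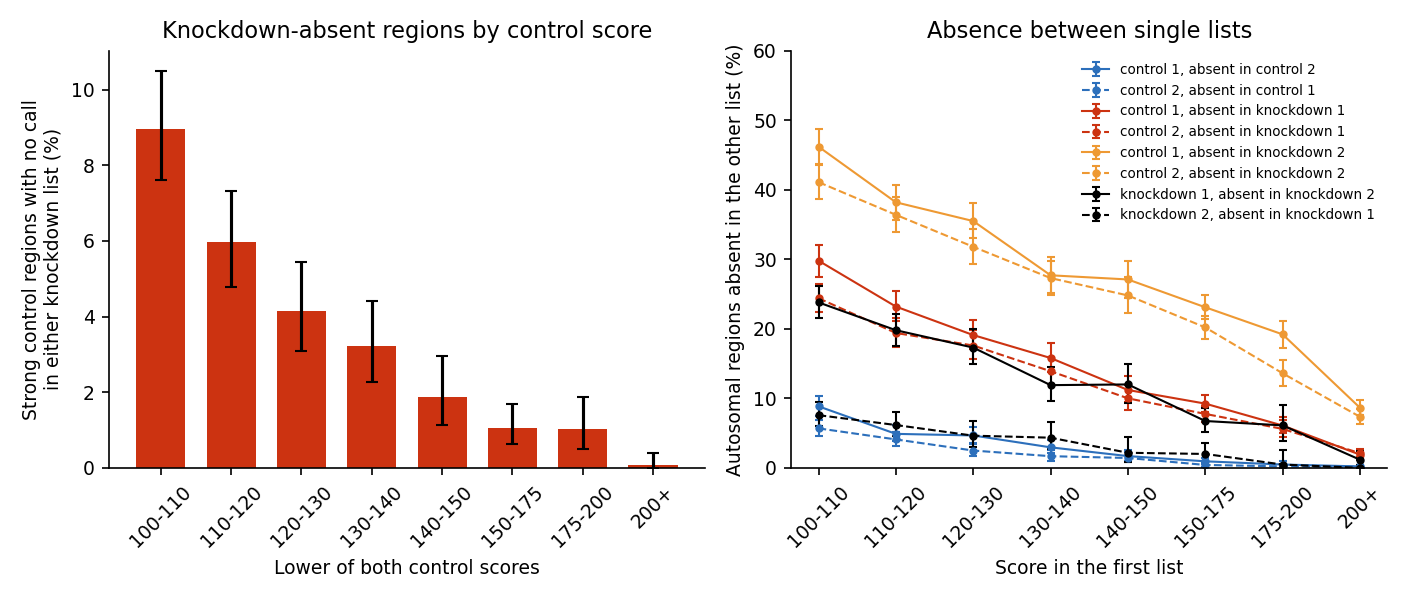
Left, the percentage of strong control regions with no call in either knockdown list (bars) by the lower of both control scores, falling from 8.96% to 0.0709%. Right, the percentage of autosomal regions of 1 list with no peak in another, by score in the first list, for pairs within the controls (blue), from the controls to knockdown replicate 1 (red) and 2 (orange) and within the knockdown (black). Error bars on both sides are 95% Clopper-Pearson intervals, and both lines into knockdown replicate 2 from the controls lie highest in each score class, falling from 46.2% to 8.64% from control replicate 1 and from 41.1% to 7.34% from control replicate 2.

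The control peaks of knockdown-absent regions were narrower than those of other strong regions. In control replicate 1 their median width was 475 bp (quartiles 392 and 544) against 522 bp (445 and 604), and in control replicate 2 it was 485 bp (402 and 550) against 547 bp (465 and 636). The difference averaged -54.5 bp ± 10.6 (SD, n = 2 control libraries). The knockdown-absent regions were the narrower ones in both controls in each of the 8 score classes, the highest of which held only 1 of them. These classes fix the lower control score only. The median difference between the control scores was smaller in knockdown-absent regions, as with 21.5 against 33.5 from 100 to 110. Widths were therefore not compared at equal scores in both controls. From 100 to 110 the medians were 466 against 503 bp in replicate 1 and 487 against 524 bp in replicate 2. From 130 to 140 they were 480 against 517 bp and 492 against 539 bp, and from 175 to 200, with 10 knockdown-absent regions, 479 against 536 bp and 478 against 556 bp. Width is not wholly free of the rule, because a wide region has more room to overlap a knockdown peak. The widest knockdown-absent region, on chromosome 17 from 57358450 to 57359701, spanned 1252 bp with scores of 101 and 120. The narrowest, on chromosome 11 from 35814886 to 35815129, spanned 244 bp with scores of 105 and 116.

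**Figure D3:**
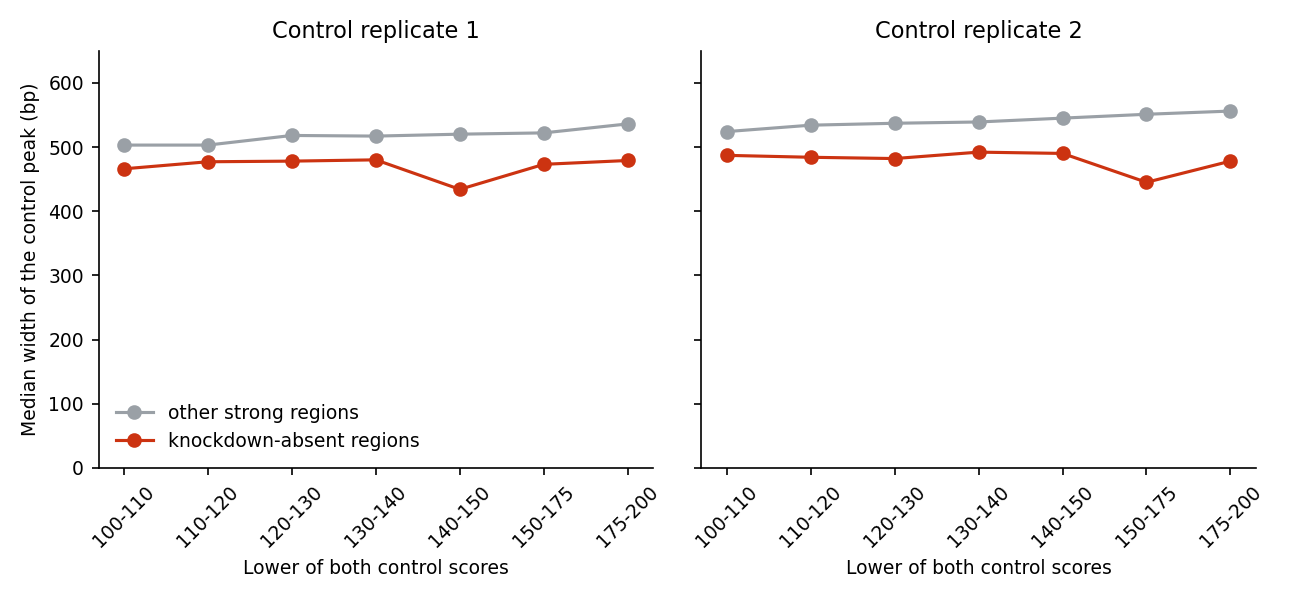
Median width of the control peak in bp (vertical) by the lower of both control scores (horizontal), for knockdown-absent regions (red) and other strong regions (grey), in control replicates 1 and 2. The class of 200 or more, with 1 knockdown-absent region, is left out, and the red points lie below the grey ones in each class shown, as with 466 against 503 bp in the lowest class of replicate 1.

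The 12 knockdown-absent regions with the highest lower control score lay on 12 different chromosomes. First was chromosome 17 from 28300469 to 28301060, with scores of 239 and 244 in control replicates 1 and 2. Its 2 control peaks were 379 and 529 bp wide, and all 7 neighbours within 100 kb, meaning other regions called in both controls, had a knockdown call. Next was chromosome 5 from 67054257 to 67054684, with scores of 194 and 240 and a single neighbour, which was called in both knockdown lists. In both cases every neighbour in the window had a knockdown peak while the region itself had none.

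Chromosome 15 from 101157572 to 101158032 scored 191 and 228, and 7 of its 9 neighbours had a knockdown call, the nearest 10918 bp away. Chromosome 7 from 108091637 to 108092247 scored 187 and 204, also with 7 of 9 neighbours called. Chromosome 2 from 25476733 to 25477255 scored 203 and 186, with 5 of 6 called. The regions on chromosomes 15 and 7 had the most neighbours of the 12, and most of these were called.

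Chromosome 1 from 186271615 to 186272169 scored 186 and 200 and had 1 neighbour, which both knockdown lists held. Chromosome 10 from 85758741 to 85759384 scored 184 and 203 and stood alone. Its nearest neighbour was 113414 bp away and had no knockdown call either, and the nearest knockdown peaks were 155776 and 155811 bp away in replicates 1 and 2. It was the only region of the 12 with no neighbour within 100 kb.

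Chromosome 9 from 108756096 to 108756659 scored 181 and 231, with 4 of 5 neighbours called. Chromosome 4 from 140828963 to 140829715 scored 180 and 198 and had all 6 neighbours called, the nearest of them 4778 bp away. Chromosome 14 from 55558102 to 55558724 scored 225 and 177, with 5 of 6 called. In that region control replicate 1 scored higher, whereas control replicate 2 scored higher in 10 of the 12.

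Chromosome 11 from 67668599 to 67669007 scored 176 and 178, with both neighbours called. Chromosome 6 from 83109443 to 83109782, which spanned 340 bp, scored 174 and 210, with 5 of 6 neighbours called. A peak of knockdown replicate 1 lay 3042 bp from it, while the nearest of knockdown replicate 2 was 51473 bp away. In total the 12 had 58 neighbours, of which 50 had a knockdown call, 33 had one in both lists and 0 were knockdown-absent regions themselves.

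**Figure D4:**
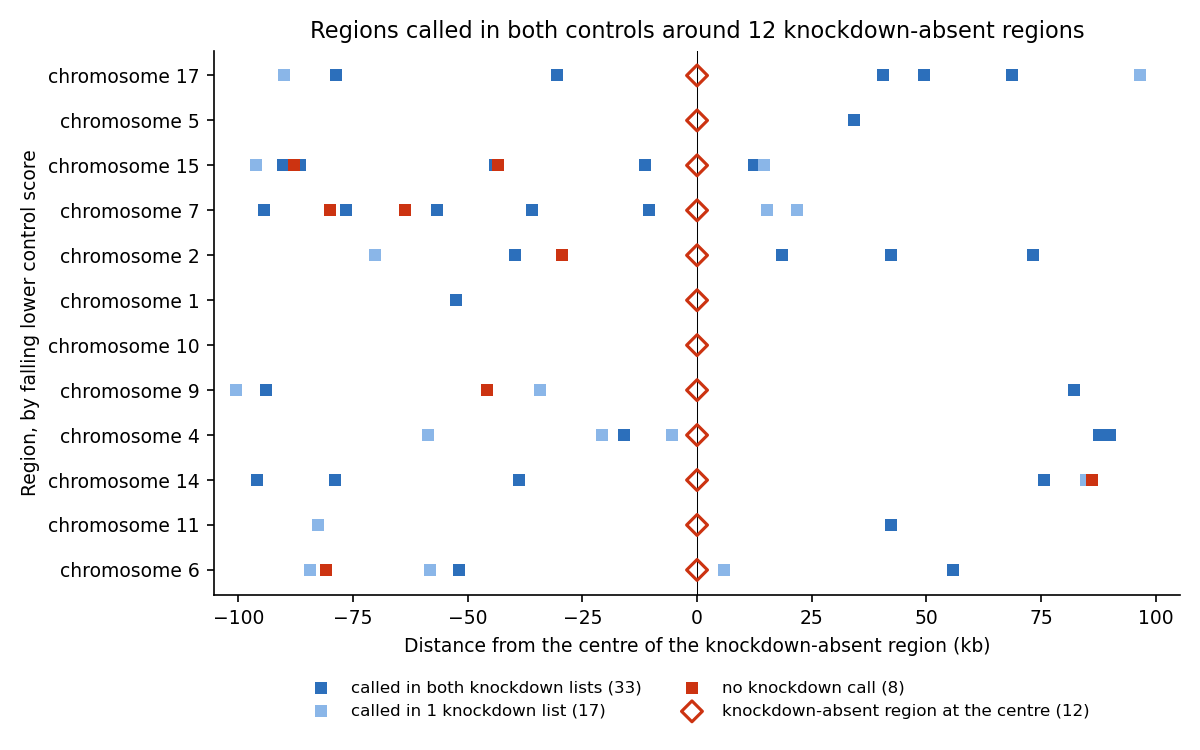
Regions called in both controls (squares) by their distance in kb from the centre of each of 12 knockdown-absent regions (diamonds), 1 row per region in order of falling lower control score. Of 58 neighbours, 33 were called in both knockdown lists (dark blue), 17 in 1 (light blue) and 8 in none (red), and the chromosome 10 region has no neighbour in the window.

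Most regions around the knockdown-absent ones were called in the knockdown, at about the share seen around other strong regions. Over all 363, the median number of neighbours within 100 kb was 3.00, as for the other strong regions, and 1214 of 1402 pairs of a region and a neighbour (86.6%, Clopper-Pearson interval 84.7 to 88.3%) had a knockdown call at the neighbour. Around the other strong regions this share was 85.6% (31730 of 37082 pairs). Knockdown-absent regions counted as neighbours too, in 32 of the 1402 and 693 of the 37082 pairs, and lacked a call by the rule. Neighbours called in both knockdown lists made up 56.1% and 56.7% of pairs. Of the 342 knockdown-absent regions with a neighbour, 205 (59.9%) had every neighbour called, against 58.2% of the other strong regions. These shares lie within 2 percentage points of each other, and pairs that share a neighbour are not independent.

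The nearest neighbour was called about as often in both sets. It lay a median of 18795 bp away and had a knockdown call in 309 of 363 cases (85.1%, interval 81.0 to 88.6%), against 18190 bp and 85.8% for the other strong regions. For the 58 regions with a neighbour within 5000 bp, 54 of these neighbours were called (93.1%, 83.3 to 98.1%), against 85.1% around other strong regions. For the 21 regions whose nearest neighbour was over 100000 bp away, 15 were called (71.4%, 47.8 to 88.7%), against 83.8%. The intervals of the smaller set include the share of the larger set in both cases.

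The rank by score was also compared for neighbours called in all 4 lists. For each, the percentile rank by score was taken within each library, and the knockdown mean minus the control mean gave a difference in points. Its median was 0.20 points over 738 neighbours within 100 kb (quartiles -14.73 and 13.35) and 3.94 points over 147 neighbours within 20 kb (-11.51 and 16.32). Around the other strong regions the medians were -0.52 and -0.30 points. Of the 147 closest neighbours, 65 (44.2%) stood lower in the knockdown, against 50.7% around other strong regions. With knockdown replicate 1 or 2 alone in place of their mean, the medians were -0.25 and -0.31 points within 100 kb, opposite in sign to the 0.20 of the mean, and 1.96 and 1.68 points within 20 kb. Around the other strong regions the values for single replicates lay between -0.13 and 0.17 points. No test of these differences was made.

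Few knockdown-absent regions had a knockdown peak close beside them. In 10 of the 363 regions a knockdown peak lay within 1 kb without touching the region, and in 4 of these it did so in both knockdown lists. For knockdown replicate 1 alone the share with another peak within 1000 bp was 1.65%, against 3.53% of the other strong regions, and for knockdown replicate 2 it was 2.20% against 2.83%. The closest case was chromosome 1 from 168084146 to 168084737, with control scores of 165 and 125 and knockdown peaks 288 and 110 bp away. The other 3 were chromosome 11 from 53572110 to 53572618 (gaps of 318 and 296 bp), chromosome 15 from 77198518 to 77199046 (537 and 491 bp) and chromosome 17 from 37051779 to 37052345 (389 and 285 bp). In each of the 4 a neighbour called in both controls lay within 338 bp, so a second control peak stood next to the one without a knockdown call. Peaks of knockdown replicate 1 lay within 10000 bp of 31.4% of knockdown-absent regions and of 30.4% of the other strong regions, not counting the peak in the region itself, and for knockdown replicate 2 these shares were 24.5% and 24.3%.

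Knockdown-absent regions were mostly single. Of the 363, 337 had no other within 100 kb, and the remaining 26 formed 10 pairs and 2 groups of 3. The share with another knockdown-absent region within 100 kb was 7.16% (interval 4.73 to 10.3%), and 6.39% of the other strong regions had a knockdown-absent region within that distance. Within 50 kb these shares were 5.23% (3.18 to 8.05%) and 3.28%. The interval at 100 kb includes the value of the other strong regions.

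The group on chromosome 19 spanned 74.2 kb, from 5056151 to 5130317. The first of its regions scored 107 and 113 in control replicates 1 and 2, the middle one 195 and 162, and the last 131 and 107. Between them lay 4 other regions called in both controls, of which 2 had a knockdown call and 0 had one in both lists. The group on chromosome 8 spanned 91.7 kb, from 72628303 to 72720016, and its regions scored 138 and 103, then 116 and 158, then 101 and 106. The 2 other regions between them both had a knockdown call.

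The closest pair lay on chromosome 2 from 153429428 to 153435706, where 2 knockdown-absent regions were 5320 bp apart. The first scored 106 and 125 and the second 185 and 112 in the controls. A pair on chromosome 17 from 86844282 to 86871546 spanned 27.3 kb. Of the 4 neighbours of each of its regions, 1 had a knockdown call and 1 was the other region of the pair. A pair on chromosome 5 from 111637626 to 111699036 held a region with 209 and 124 and one with 139 and 111, and the nearest knockdown peaks lay 132647 and 71637 bp away in replicate 1. Over all 12 groups, 21 other regions lay inside and 16 of them had a knockdown call. The pairs named here were picked after their values were seen.

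A few knockdown-absent regions stood far from other regions called in both controls, with 21 of the 363 (5.79%) having no such neighbour within 100 kb. This was no larger a share than the 6.89% of the other strong regions (692 of 10048). In 26 of the 363, not all of them among these 21, both knockdown lists had no peak within 100 kb. The most isolated was chromosome 1 from 149070303 to 149070810, with scores of 124 and 177, whose nearest neighbour lay 2534655 bp away and was called in the knockdown. The next were chromosome 11 from 65935445 to 65935883 (scores 134 and 109, neighbour at 749291 bp) and chromosome 13 from 39532770 to 39533223 (118 and 108, at 428570 bp). A peak of knockdown replicate 1 lay closer to the chromosome 11 region, 269496 bp away. Then came chromosome 12 from 89222460 to 89222806 (150 and 139, at 420580 bp) and chromosome 9 from 73405436 to 73406085 (172 and 109, at 397890 bp). For each of these 5 the nearest neighbour had a knockdown call.

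All 19 autosomes held knockdown-absent regions, and no autosome stood apart from the rest by more than its counting interval. The share ran from 2.32% on chromosome 14 (10 of 431, interval 1.12 to 4.23%) to 4.62% on chromosome 17 (19 of 411, 2.81 to 7.13%). Chromosome 11 held the most, 36 of 861 (4.18%, 2.95 to 5.74%), followed by chromosome 2 with 31 of 860 (3.60%) and chromosomes 1 and 4 with 29 each. The interval of every autosome included the overall 3.49%. On chromosome X, which the rule leaves out, 4 of 188 strong regions had no knockdown call.

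**Figure D5:**
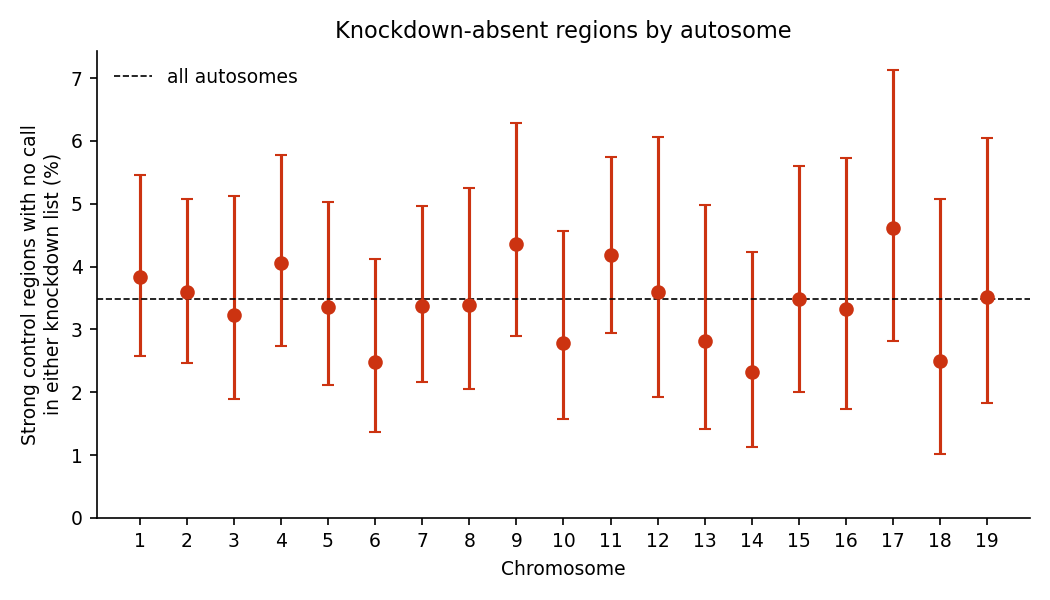
Percentage of strong control regions with no call in either knockdown list on each of 19 autosomes (points) with 95% Clopper-Pearson intervals (bars). The dashed line is the share over all autosomes, 3.49%, and it crosses the interval of each chromosome, from 2.32% on chromosome 14 to 4.62% on chromosome 17.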

How the data were processed

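CTCF ChIP-seq peaks were analysed in 4 WEHI-231 libraries, 2 control and 2 TFII-I knockdown. Each deposited list gives a position and a score per peak, and the score is the authors' own value. Its steps look like those of a negative log10 p-value multiplied by a constant, which no source used here states. BWA, HOMER and the build mm9 are named in the submitters' processing notes without roles, and peak names carry the word MACS, per the deposited lists. Use of an input library is not given in the sources used here.

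Coordinates were read as counted from 1. Peaks were merged at 1 bp overlap, and the highest score per library was kept. Neighbours are other autosomal regions called in both controls with an edge within 100 kb. Shares carry 95% Clopper-Pearson intervals, which cover counting error only. No test across regions was made. The rule for naming regions took the 12 with the highest lower control score, those nearest the threshold of 100, the widest, the narrowest, the 5 most isolated and the largest groups. The set of regions and the comparisons were chosen with earlier results of these data known. The planned sequence features needed an mm9 genome and were not analysed here. Alternatives were other score thresholds, overlap rules, distances, lists of 15309 peaks each, and leaving out each library.

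Python 3.11.15, numpy 2.4.6, pandas 2.3.3, scipy 1.17.1 and matplotlib 3.10.9 were used. The steps were tested on simulated data: with 200 strong peaks taken out of copies of the 23789 autosomal control replicate 1 peaks, the rule found 200 regions, all of them the right ones.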

Additional observations from a re-analysis of the deposited data

How the results depend on the processing

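The number of knockdown-absent regions followed the threshold and the calls required. It was 869 of 13887 strong regions (6.26%) with a score of 80 or more and 29 of 4084 (0.710%) with a score of 150 or more. With lists of equal length it was 597 of 10411 (5.73%), and with reciprocal overlap of 50% it was 836 of 10163 (8.23%). Equal length kept control peaks down to scores of 92.5 and 88.1 and knockdown replicate 1 peaks down to 62.0. Knockdown replicate 2, the shortest list, stayed whole. By construction, all 363 were therefore among the 597, and the added 234 had a call in a complete knockdown list. The number was 355 of 10386 (3.42%) with merging of peaks within 500 bp and 353 of 10411 (3.39%) with no knockdown peak within 1 kb. With peak centres within 500 bp it was 366 of 10424 (3.51%). Leaving out 1 library, which loosens the rule by construction, gave from 808 to 1978 regions. Without knockdown replicate 2 the number was 808 of 10411 (7.76%), and without knockdown replicate 1 it was 1978 of 10411 (19.0%). Without control replicates 1 and 2 it was 816 of 12925 (6.31%) and 994 of 13657 (7.28%). Regions scoring 100 or more in a control were also counted against the knockdown of the same replicate number (replicate block). Of 13657 in control replicate 1, 1762 lacked a call (12.9%), and of 12925 in control replicate 2, 3087 did (23.9%). No paired test was made.

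The width difference kept its sign in each of these settings for which it was computed, at -84.5 bp with a score of 150 or more and -67.5 to -42.8 bp with 1 library left out. The share of neighbours with a knockdown call was 89.0% with a score of 150 or more (other strong regions 85.9%), 90.7% with lists of equal length (92.3%), 84.2% for neighbours within 250 kb (85.7%) and 62.3 to 80.8% with 1 library left out (64.0 to 79.8%). The share with another such region nearby was 13.3% with a score of 80 or more (14.2%), 0% with a score of 150 or more, 12.7% with lists of equal length (10.7%), 17.1% within 250 kb (14.3%) and 12.1 to 34.4% with 1 library left out. Without knockdown replicate 1 it was 34.4% (28.9%), and in the other 3 such settings it was below the share of the other strong regions. These shares move with the number of regions chosen, and the cause of the remaining changes was not tested.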
